A study of Mus musculus with 12 samples.

Results

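The genes of the myelin sheath described here were Mbp, Mobp, Mag, Mog, Cnp, Mal, Cldn11 and Ermn, 8 of the 32546 genes in the table of unique molecular identifier (UMI) counts. They were taken by gene symbol, and the list was drawn up with the regional and histological results of these same data known, so that their levels, fold changes and separation between groups are given as description, without a test. All 8 were in the table, 7 had at least 1 UMI in each of the 48 replicates, and Mog had UMIs in 47. The sections came from the hippocampus of male ICR mice (Slc:ICR in the methods), an outbred stock, aged 8 weeks, and the labels name no transgene or drug. In photo-isolation chemistry (PIC), cDNA is made in the section with photo-caged primers, and light directed at CA1, CA3 or the dentate gyrus (DG) uncages only the primers in that area, so that only its cDNA is amplified, here by CEL-seq2. Each region was taken in 4 histological conditions with 4 replicates each. Fresh-frozen sections were opened either with HCl (0.1 N, 5 min) or with TE buffer (70 °C, 1 h), and tissue fixed in 4% PFA was cut either as frozen or as paraffin sections, both with TE. In the paper's protocol frozen and paraffin sections alike are also post-fixed on the slide with 4% PFA. Fixed tissue here therefore means tissue fixed before it was cut, and fresh-frozen does not mean free of PFA. In lists of the 4 conditions, TE alone stands for fresh-frozen sections with TE. The 4 replicates of a region and condition were pooled in 1 of the 12 libraries, so that differences between regions or conditions cannot be told apart from differences between libraries. The replicates are biological ones according to the methods, and which mouse stands behind each is not named in the sources used here.

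Myelin is the membrane that oligodendrocytes wrap around axons, and its transcripts are among the most abundant in these cells. In the hippocampus the pyramidal and granule cell layers consist mainly of neuron bodies, whereas myelinated axons run in the alveus and fimbria, in the stratum lacunosum-moleculare and, more sparsely, between the cell layers. Transcripts of several myelin genes, Mbp and Mobp among them, are carried out of the cell body into the processes, so that RNA in a lit area may belong to cells whose bodies lie elsewhere. In bulk libraries such as these, fewer oligodendrocytes and less myelin RNA per oligodendrocyte cannot be told apart, and the amount of white matter in the lit area was not measured in another way. Levels are given as CPM, the UMIs of a gene scaled to a total of 1000000 per replicate, with ± for the SD of 4 replicates. Log2 fold changes come from the edgeR fit, with the region or condition named first in the numerator and ± for the standard error (SE) of the fit.

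In GRCm38 the 8 genes lie on 7 chromosomes. Mbp, whose product joins the cytoplasmic faces of the membrane in compact myelin, is placed with its values. Mobp, another small basic protein of compact myelin, is at chr9:120149707-120181484 (plus). Mag, the adhesion protein on the membrane next to the axon, is at chr7:30899176-30914873 (minus), and Mog, an immunoglobulin-like protein of the outer surface of the sheath, is at chr17:37010743-37023398 (minus). Cnp, the cyclic nucleotide phosphodiesterase of uncompacted myelin, is at chr11:100574904-100591729 (plus). Mal, a proteolipid of membrane transport, is at chr2:127633226-127656695 (minus), Cldn11, the claudin of the tight junctions between myelin layers, is at chr3:31149920-31164324 (plus), and Ermn, an actin-binding protein of mature oligodendrocytes, is at chr2:58045113-58052864 (minus). Cnp, with its 3′ end, overlaps Dnajc7 on the opposite strand, with 942 UMIs over all replicates against 8767 for Cnp, and the 3′ end of Ermn overlaps Galnt5, with 98 UMIs against 1917. Mobp, with its 3′ end, overlaps Gm38642 on the same strand, with 5 UMIs against 16522. The assignment used no option for strand or for reads that fall on overlapping genes. Counts of these genes may therefore have been lost, or may belong in part to the partner gene, and neither was measured.

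Promoter windows of 300 bases (250 before and 50 after the start, RefSeq, GRCm38.p6) were searched for short motifs on both strands. The first was the letters CTGGCAC, the core bound by the oligodendrocyte factor Myrf, and the second ACAAAG, a core of Sox factor sites. The search covered 9 windows of 7 of the genes, and no window of Mbp was at hand. The first motif was present in windows of 2 of the 7 genes and in 5.01% of the 32851 windows of all genes, and the second in 3 of the 7 and in 18.7% of all windows. Here and below the 7 are counted by gene, with a match in any window, and the percentages by window, so that the units differ. The windows of Mag (chr7:30914814-30915113, minus strand) and Cnp (chr11:100574689-100574988, plus strand) held 1 match of each, that of Mobp (chr9:120149492-120149791, plus strand) held 6 of the Sox letters and none of the Myrf letters, and that of Mal (chr2:127656646-127656945, minus strand), the gene with the largest differences between CA1 and DG, held neither. These 4 windows are printed 5′ to 3′ in the direction of the gene, with the matches in capitals. The reverse complements are GTGCCAG and CTTTGT.
Mag: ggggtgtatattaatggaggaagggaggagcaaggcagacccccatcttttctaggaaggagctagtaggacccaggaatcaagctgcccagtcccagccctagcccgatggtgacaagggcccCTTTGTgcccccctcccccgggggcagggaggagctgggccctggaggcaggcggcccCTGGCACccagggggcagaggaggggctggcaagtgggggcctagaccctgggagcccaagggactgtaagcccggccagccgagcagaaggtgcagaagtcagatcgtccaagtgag
Cnp: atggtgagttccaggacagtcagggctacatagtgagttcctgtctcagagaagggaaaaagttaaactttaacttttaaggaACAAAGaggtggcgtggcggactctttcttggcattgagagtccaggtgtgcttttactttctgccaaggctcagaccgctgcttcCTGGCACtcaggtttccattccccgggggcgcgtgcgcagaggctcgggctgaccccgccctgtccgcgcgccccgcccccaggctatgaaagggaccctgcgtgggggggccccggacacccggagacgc
Mobp: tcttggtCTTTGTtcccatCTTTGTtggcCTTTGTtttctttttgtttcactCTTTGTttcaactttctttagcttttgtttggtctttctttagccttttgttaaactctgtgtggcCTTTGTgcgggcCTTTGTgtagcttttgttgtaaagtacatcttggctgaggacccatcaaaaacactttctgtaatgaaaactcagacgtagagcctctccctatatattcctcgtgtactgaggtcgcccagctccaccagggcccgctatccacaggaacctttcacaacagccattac
Mal: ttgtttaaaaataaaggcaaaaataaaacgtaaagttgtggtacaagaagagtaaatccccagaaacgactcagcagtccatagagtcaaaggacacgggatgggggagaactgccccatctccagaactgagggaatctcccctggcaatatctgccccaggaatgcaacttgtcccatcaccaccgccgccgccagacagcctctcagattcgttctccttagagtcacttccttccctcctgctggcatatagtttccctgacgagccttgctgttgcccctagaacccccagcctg
Of the other motifs searched, CTGGCA, which lies within the Myrf letters, was present in windows of 5 of the 7 genes and 20.6% of all windows, AACAAAG, which holds the Sox letters, in 2 of 7 and 5.85%, and the E-box CAGCTG and TATAAA in none of the 7 and in 16.3% and 13.6%. A match of letters is a description of the sequence, and binding was not measured.

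The summed CPM of the 8 genes followed the same order of regions in all 4 conditions, with the highest mean in CA1 and the lowest in DG. In HCl-permeabilized sections the 4 CA1 replicates had 8691, 6501, 7905 and 12558 CPM, those of CA3 7633, 5876, 7318 and 8539, and those of DG 4479, 2894, 2858 and 3077. In fresh-frozen sections with TE the values were 5971, 4850.4, 5931 and 8983 in CA1, 5888, 6647, 5591 and 4429.8 in CA3 and 2513, 1888, 2320.2 and 2191 in DG. In both of these conditions each replicate of CA1 and of CA3 lay above each replicate of DG, and CA1 and CA3 overlapped. Fixed frozen sections gave 4534, 10328, 4169 and 5516 CPM in CA1, 2454, 2859, 2732 and 1989 in CA3 and 1133, 1501, 1213 and 1220.2 in DG, and there the 3 regions did not overlap. Paraffin sections gave 15346, 11555, 10157 and 10158 CPM in CA1, 10764, 11737, 7718 and 4336 in CA3 and 9328, 6215, 4734 and 2972 in DG, and only CA1 and DG were separate. The ratio of the CA1 mean to the DG mean was 2.68 with HCl, 2.89 in fresh-frozen sections with TE, 4.84 in fixed frozen and 2.03 in paraffin sections. The corresponding ratios of CA3 to DG were 2.21, 2.53, 1.98 and 1.49.

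**Figure D1:**
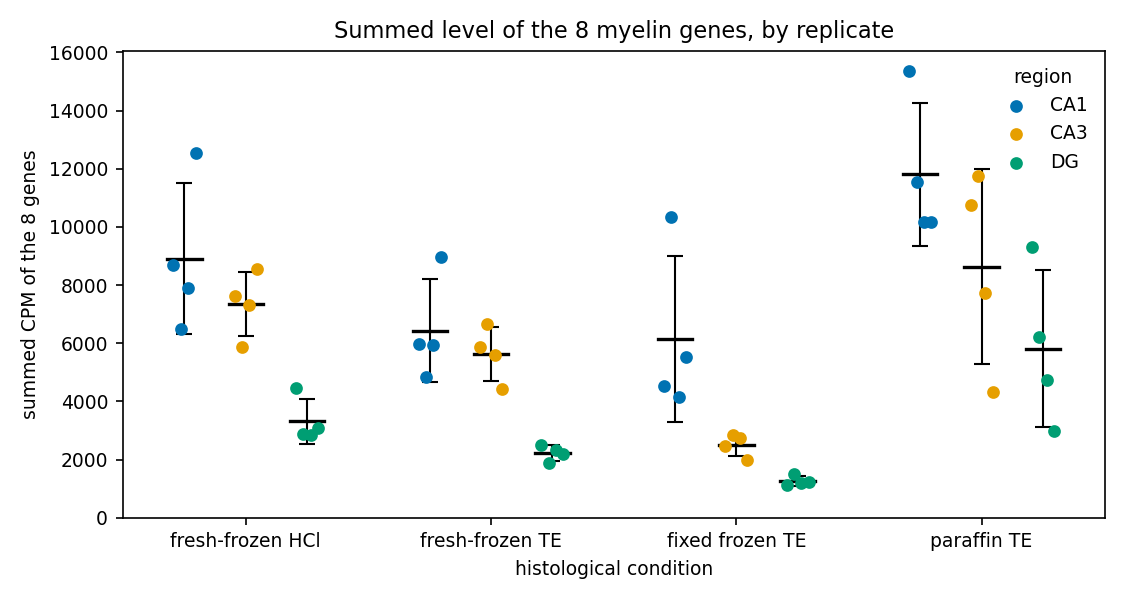
Summed CPM of the 8 genes in each replicate (points) by histological condition (x axis) and region (colour), with the mean (bar) and SD (whiskers) of 4 replicates. The DG mean is lowest in each condition, and in paraffin sections the DG replicates spread from 2972 to 9328 CPM and overlap CA3.

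When the 12 libraries were ordered by their mean, paraffin CA1 came first (11804 ± 2452 CPM, SD, n = 4) and fixed frozen DG last (1267 ± 161). Neighbours in this order overlapped in their replicates throughout, except for the last pair, in which fresh-frozen DG with TE (2228 ± 263) lay above fixed frozen DG. Such an overlap does not show that neighbours had like levels. It was narrow between DG with HCl (lowest replicate 2858.2 CPM) and fixed frozen CA3 (highest 2858.5). Paraffin DG (5812 ± 2693) lay close to fresh-frozen CA3 with TE (5639 ± 921), so that similar means were found in different regions under different preparations.

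Taken gene by gene, all 8 had each CA1 replicate above each DG replicate in HCl-permeabilized sections, where 8.94% of the 14893 genes tested showed such a separation towards CA1. With TE in place of HCl this held for 8 of 8 (6.82% of genes), in fixed frozen sections for 8 of 8 (4.71%) and in paraffin sections for 2 of 8, Cnp and Cldn11 (2.51%). Between CA3 and DG the counts were 6 of 8 with HCl (7.12% of genes towards CA3), 8 of 8 in fresh-frozen sections with TE (5.88%), 5 of 8 in fixed frozen (5.05%) and 0 of 8 in paraffin sections (3.22%). CA1 lay above CA3 without overlap for 4 genes in fixed frozen sections, Mbp, Mag, Cnp and Cldn11 (5.61% of genes), and for 0 of 8 with HCl (6.57%), in fresh-frozen sections with TE (4.61%) and in paraffin sections (2.90%). As the list was chosen on these contrasts, no test is attached to these counts. The median log2 fold change of the 8 genes for CA1 over DG was 1.51, 1.76, 2.42 and 0.86 in the 4 conditions in the order above, beside medians of all genes tested of 0.03, 0.01, -0.11 and -0.18. For CA3 over DG it was 1.51, 1.64, 0.90 and 0.57.

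**Figure D2:**
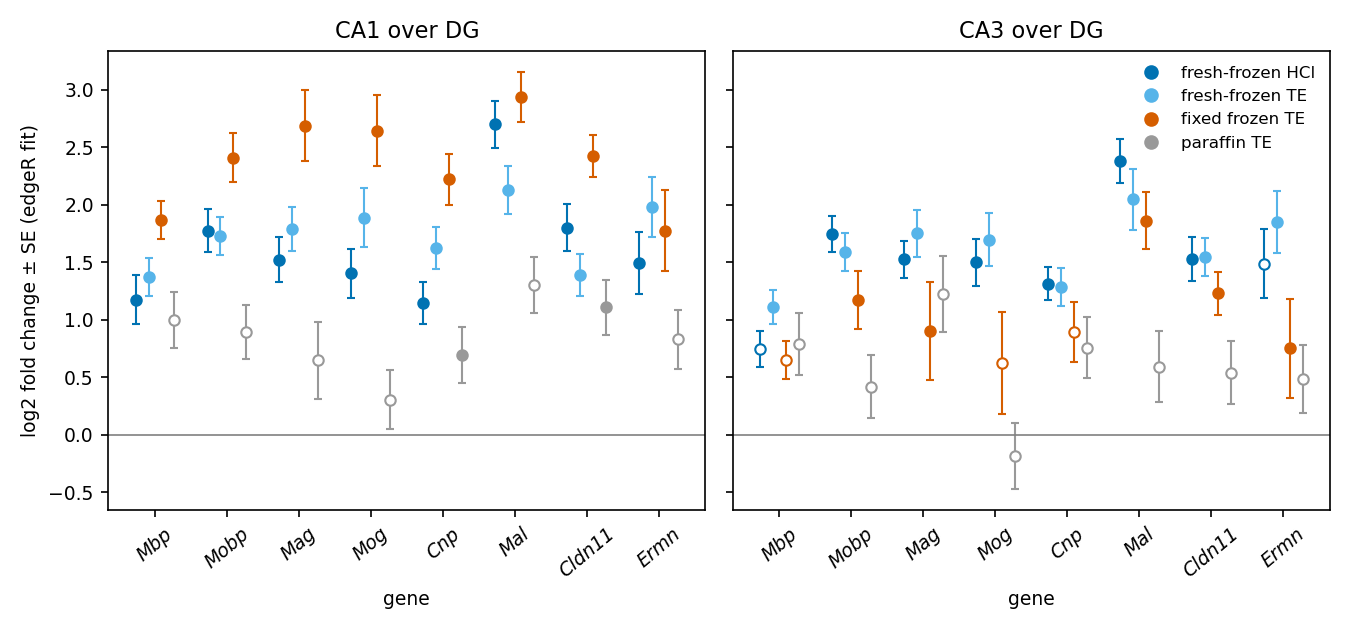
Log2 fold change over DG (y axis, point, with SE of the edgeR fit as whiskers) of each of the 8 genes (x axis) in CA1 (left) and CA3 (right), by condition (colour), filled where the 4 replicates of the region all lay above those of DG. Mal has the highest CA1 value in each condition, and the paraffin values lie lowest for most genes.

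Mbp, at chr18:82475146-82585637 on the plus strand, was the most counted of the 8 genes, with 45184 UMIs over all replicates. In HCl-permeabilized sections its 4 replicates had 3969, 3209.8, 3324 and 7135 CPM in CA1, 3197, 2555, 3157 and 3913 in CA3 and 2643, 1627, 1562 and 1951 in DG. CA1 lay above DG without overlap, and the lowest CA3 replicate lay just under the highest DG replicate. In fresh-frozen sections with TE the values were 2615, 2214, 2285 and 4134 in CA1, 2647, 2294, 2114 and 2159 in CA3 and 1246, 934, 1049 and 1202 in DG, and there both CA regions were above DG. In fixed frozen sections the CA1 values of 1275, 3809, 1432 and 1679 CPM held 1 replicate, number 2, more than 2-fold above the others, beside 856, 1143, 892 and 455 in CA3 and 492, 671, 519.7 and 523 in DG. Paraffin sections gave 6382, 4428, 5001 and 3256 in CA1, 4137, 5601, 3807 and 1929.7 in CA3 and 3735, 2569.5, 1869 and 1043 in DG, with overlap between all regions. For CA1 over DG the log2 fold change came to 1.18 ± 0.21 with HCl, 1.37 ± 0.16 in fresh-frozen sections with TE, 1.87 ± 0.17 in fixed frozen and 1.00 ± 0.25 in paraffin sections. Without CA1 replicate 2 the fixed frozen value was 1.35 for Mbp and 1.70 for Mobp.

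The counts of Mbp were large beside the number of UMIs available. With UMIs of 6 bases at most 4096 different molecules of a gene can be counted in a replicate, and the highest Mbp count was 2982, or 72.8% of that number, in a CA3 replicate with HCl. In 8 replicates Mbp passed 2048, whereas the highest count of the other 7 genes was 34.3% of the limit, for Mobp. Under random draws of UMIs the count of 2982 would stand for 1.79 times as many molecules, and such a correction, added after the data were seen, gave log2 ratios of mean CPM of 1.18 for CA3 to DG with HCl (fold change without it 0.75 ± 0.16), 1.45 for CA1 to DG with HCl and 1.62 for CA1 to DG in fresh-frozen sections with TE. In fixed frozen and paraffin sections the mean correction of a library was at most 1.04-fold.

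Mobp had mean levels of 1265 ± 276 CPM in CA1, 1209 ± 218 in CA3 and 366 ± 70.7 in DG with HCl (SD, n = 4 each), and 1147 ± 256, 1025 ± 195 and 353 ± 81.9 in fresh-frozen sections with TE. In fixed frozen sections CA1 had 619 ± 427 CPM, CA3 267 ± 22.9 and DG 110.5 ± 45.0, the lowest levels of the 4 conditions in each region. Both CA regions were above DG in each replicate of the 3 frozen conditions. Paraffin sections held 1867 ± 761, 1205 ± 528 and 954 ± 533 CPM, and the regions overlapped. The CA1 over DG values ran on the log2 scale from 0.89 ± 0.24 in paraffin to 2.41 ± 0.22 in fixed frozen sections.

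The proteins of the sheath's inner and outer surfaces, Mag and Mog, were counted less often. Mag had 382, 272, 491 and 487 CPM in the CA1 replicates with HCl, 384, 388, 395 and 409 in CA3 and 165, 161, 113 and 117 in DG, so that the lowest CA replicate lay above the highest DG replicate. In fixed frozen sections Mag had 203, 370.4, 145 and 277 in CA1, 61.1, 63.5, 93.9 and 56.8 in CA3 and 29.8, 29.3, 49.5 and 45.9 in DG, and CA1 lay above both other regions. The CA3 and DG libraries held 30 Mag UMIs each there, and the log2 fold change of CA3 over DG was 0.90 ± 0.43. In paraffin sections Mag was the only one of the 8 genes with a higher mean in CA3 (275 ± 161) than in CA1 (205 ± 67.4), with overlapping replicates.

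Mog had 297 ± 54.5 CPM in CA1, 304 ± 58.1 in CA3 and 113 ± 41.5 in DG with HCl, and the lowest CA1 value of 223 was above the highest DG value of 173. In fixed frozen CA3 it had 50.9, 127, 23.5 and 0 CPM from 26 UMIs in all, against 116, 448, 102 and 295 in CA1 from 117 UMIs. The value of 0 came from the replicate with 52800 UMIs in total, where a count of 0 allows up to 56.8 CPM (3 UMIs, counting error only), so that Mog was not detectable there at this depth. In paraffin sections Mog had the smallest difference of the 8 genes between CA1 and DG, 0.30 ± 0.26, and its CA3 over DG value was -0.18 ± 0.29.

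Cnp lay at similar levels in CA1 and CA3 in HCl-permeabilized sections, with 635, 449, 663 and 739 CPM in CA1 and 686, 599.7, 686 and 737 in CA3, against 332, 288, 261 and 222 in DG. The means in fresh-frozen sections with TE were 558 ± 188, 431 ± 93.8 and 182 ± 19.7. In fixed frozen sections CA1 had 497 ± 248 CPM, CA3 185 ± 96.6 and DG 102 ± 48.9, and CA3 overlapped DG. In paraffin sections the CA1 replicates (846 to 1169 CPM) lay above those of DG (311 to 725), with a log2 fold change of 0.69 ± 0.24.

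Mal had the largest log2 fold change of CA1 over DG of the 8 genes in each condition. With HCl the values were 480.2, 385, 657 and 385 CPM in CA1, 328, 379, 502 and 312 in CA3 and 85.2, 74.4, 80.0 and 50.2 in DG, and the fold changes were 2.70 ± 0.21 for CA1 and 2.38 ± 0.19 for CA3. In fresh-frozen sections with TE the levels were 343, 426, 694 and 499 in CA1, 286, 696, 609 and 225 in CA3 and 108, 98.8, 174 and 57.7 in DG. The fixed frozen values of 666, 1039, 520.0 and 793 in CA1, 295, 254, 548 and 246 in CA3 and 112, 111, 90.7 and 55.0 in DG gave the largest change of any of the 8 genes, 2.94 ± 0.22. In paraffin sections the CA1 range of 593 to 1188 CPM overlapped the DG range of 140.0 to 630.5. Within libraries Mal was also the least like the other 7 genes, as given further on.

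Cldn11 was separate between CA1 and DG in each of the 4 conditions, paraffin sections included. It had 1327 ± 365 CPM in CA1, 1064 ± 266 in CA3 and 377 ± 119 in DG with HCl, and 763 ± 258, 833 ± 186 and 294 ± 58.1 in fresh-frozen sections with TE. In fixed frozen sections the replicates had 1391, 2366, 1194 and 1439 in CA1, 682, 628, 665 and 795 in CA3 and 276, 267, 259.9 and 394 in DG, and the 3 regions did not overlap. In paraffin sections the lowest CA1 replicate had 1568 CPM and the highest DG replicate 1525, with a log2 fold change of 1.11 ± 0.24. In DG its mean in the 3 frozen conditions was 377, 294 and 299 CPM, a narrower spread than in the CA regions.

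Ermn, with 1917 UMIs, was the least counted. Its levels were 109 ± 16.6 CPM in CA1, 108 ± 34.9 in CA3 and 37.9 ± 24.02 in DG with HCl, and the 4 DG replicates ranged from 12.6 to 68.1. In fresh-frozen sections with TE they were 120.3 ± 33.2, 105 ± 40.5 and 30.8 ± 12.7, and in fixed frozen sections 131 ± 62.5, 71.7 ± 20.8 and 37.9 ± 7.71. The fixed frozen CA3 and DG libraries held only 28 and 32 Ermn UMIs. Paraffin sections stood apart, with 486 ± 216 in CA1, 325 ± 129.9 in CA3 and 242 ± 117 in DG. Each paraffin replicate had more Ermn than each fixed frozen replicate of the same region, and Ermn was the only one of the 8 genes for which this held in all 3 regions (0.886% of the 12189 genes tested).

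In a comparison of the histological conditions, the 8 genes did not move as a block. With HCl in place of TE in fresh-frozen sections their median log2 fold change was 0.29, beside 0.10 over all genes tested. Single values ran from -0.39 ± 0.14 for Mal and -0.12 ± 0.16 for Ermn to 0.50 ± 0.12 for Mbp and 0.51 ± 0.14 for Mog. In DG, 3 of the 8 genes (Mbp, Mag and Cnp) had all HCl replicates above all TE replicates (11.9% of genes), in CA3 only Cnp did (12.1%), and in CA1 0 of 8 (12.4%).

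Fixed frozen sections differed from fresh-frozen sections with TE by a median of -0.58, beside -0.39 over all genes. Here the genes parted. Mobp was at -1.46 ± 0.15, Mag at -1.14 ± 0.18 and Mbp at -0.996 ± 0.13, whereas Mal was at -0.01 ± 0.16, Ermn at -0.08 ± 0.19 and Cldn11 at 0.23 ± 0.13. In CA3 the fixed frozen replicates of 4 genes (Mbp, Mobp, Mag and Cnp) all lay under those of fresh-frozen sections with TE, as did 25.7% of the genes tested, and in DG those of 3 (Mbp, Mobp and Mag), as did 21.2%. In CA1 0 of 8 lay under (22.0% of genes), and Cldn11 lay above in each replicate, at 1597 ± 524 against 763 ± 258 CPM (8.76% of genes). Markers of other cells also moved in this contrast (edgeR), with 7 of 10 astrocyte and 6 of 8 endothelial and mural markers lower in fixed frozen sections (32.9% of all genes were called lower) and 4 of 8 dentate granule markers higher and 1 lower (15.8% called higher). Their median log2 fold changes were -0.90, -1.79 and 0.43, and their part in the values of the myelin genes was not tested.

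Paraffin sections compared with frozen sections of fixed tissue had a median log2 fold change of 1.69 over the 8 genes, beside 0.05 over all genes, and all 8 values were positive, from 0.72 ± 0.16 for Mal to 2.11 ± 0.16 for Mobp. In DG 7 of the 8 genes were higher in each paraffin replicate (10.4% of genes), in CA3 5 (6.83%) and in CA1 1, Ermn (6.45%). The ratio of paraffin to fixed frozen means of the summed CPM was 4.59 in DG, 3.44 in CA3 and 1.92 in CA1, so that the regions lay closer together in paraffin than in fixed frozen sections. Markers of neurons moved in the same contrast (edgeR), with 4 of 7 CA1 pyramidal, 5 of 8 dentate granule and 1 of 5 CA3 markers lower in paraffin sections, and 2 of 7 interneuron markers lower and 2 higher, where 13.7% of all genes were called higher and 14.4% lower. The median log2 fold change was -0.85 for the CA1 pyramidal and -1.56 for the dentate granule markers, and 0.30 for the 9 astrocyte markers tested. The part of these cells in the paraffin values of the myelin genes was not tested.

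The share of each gene in the UMIs of the 8 genes differed between the conditions. Mbp held 50.1% ± 7.52 with HCl, 44.9% ± 5.71 in fresh-frozen sections with TE, 36.2% ± 6.89 in fixed frozen and 41.4% ± 5.44 in paraffin sections (SD over the 12 replicates of a condition). Cldn11 held 13.5%, 13.2%, 26.5% and 16.7% in the same order. Its lowest share in fixed frozen sections, 17.8%, was above the highest in either fresh-frozen condition, 17.3%. Mal went from 4.42% with HCl to 6.90% with TE in fresh-frozen and 11.2% in fixed frozen sections, and Mobp from 17.3% in fresh-frozen sections with TE to 9.66% in fixed frozen sections. Ermn held 1.27%, 1.68%, 2.71% and 4.07%, and Mag 4.79%, 4.82%, 3.33% and 2.30%, in the order HCl, TE, fixed frozen and paraffin. Within the 3 frozen conditions the Mbp share was highest in DG, at 58.3%, 49.8% and 43.5%. A share within a replicate does not depend on its total, although the UMI limit lowers that of Mbp, in fresh-frozen sections more in the CA regions than in DG. The mean correction for repeated UMIs was 1.49-fold in CA1, 1.64-fold in CA3 and 1.14-fold in DG with HCl. In fresh-frozen sections with TE it was 1.31, 1.35 and 1.07-fold. The shares given here were not corrected.

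**Figure D3:**
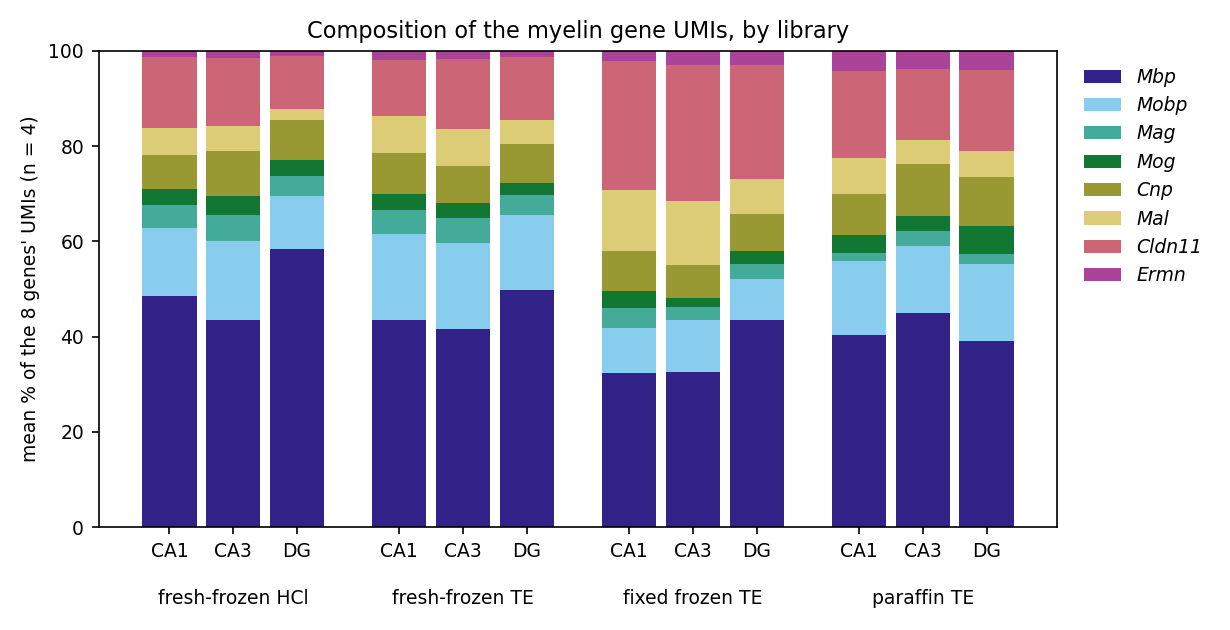
Mean share (y axis, %, n = 4 replicates) of each of the 8 genes (colour) in their joint UMIs, by library (x axis: region within condition). The Cldn11 segment is tallest in the fixed frozen libraries and the Mbp segment tallest in DG with HCl.

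The other genes of the lineage, 71 in 6 lists that hold none of the 8, were tested with edgeR over all genes at an adjusted p (Benjamini-Hochberg) under 0.05. These lists too were made with earlier results of the data known. For CA1 over DG with HCl, 49 of the 69 tested were higher in CA1 and 2 lower, where 8.61% and 8.35% of all genes were called. With TE 33 of 67 were higher and 3 lower (5.15% and 4.99% of all genes), and in fixed frozen sections 26 of 58 were higher and 1 lower (3.36% and 4.78%). In paraffin sections 3 of 59 were higher and 5 lower (0.870% and 2.42%), and with DESeq2 size factors in place of TMM this split became 5 and 3. For CA3 over DG the counts were 40 higher and 1 lower of 68 with HCl (4.46% and 4.53%), 33 and 2 of 67 with TE (4.35% and 3.56%), 5 and 1 of 56 in fixed frozen (4.29% and 4.98%) and 1 and 1 of 62 in paraffin sections (1.93% and 1.28%). Between CA1 and CA3 there were 5 higher and 3 lower of 70 with HCl (4.07% and 5.06%) and 0 and 1 of 69 with TE (1.99% and 2.41%), where 3 were higher at an unadjusted p under 0.05 and DESeq2, which left 5 lineage genes without an adjusted p, also called 0 higher. Fixed frozen sections gave 10 and 1 of 55 (3.34% and 3.86%) and paraffin sections 2 and 1 of 54 (0.640% and 1.72%). The p-values measure the spread between these replicates, which shared 1 library per region and condition. CA1 replicate 2 of the fixed frozen sections decided part of the calls, which without it numbered 15 in place of 27 between CA1 and DG and 5 in place of 11 between CA1 and CA3. In paraffin sections the calls between CA1 and DG ranged from 5 to 13 when single replicates were left out, with 13 without DG replicate 1. The few calls between CA1 and CA3 with HCl (4 to 8) and in paraffin sections (0 to 5), and between CA3 and DG in paraffin sections (1 to 5), varied likewise.

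**Figure D4:**
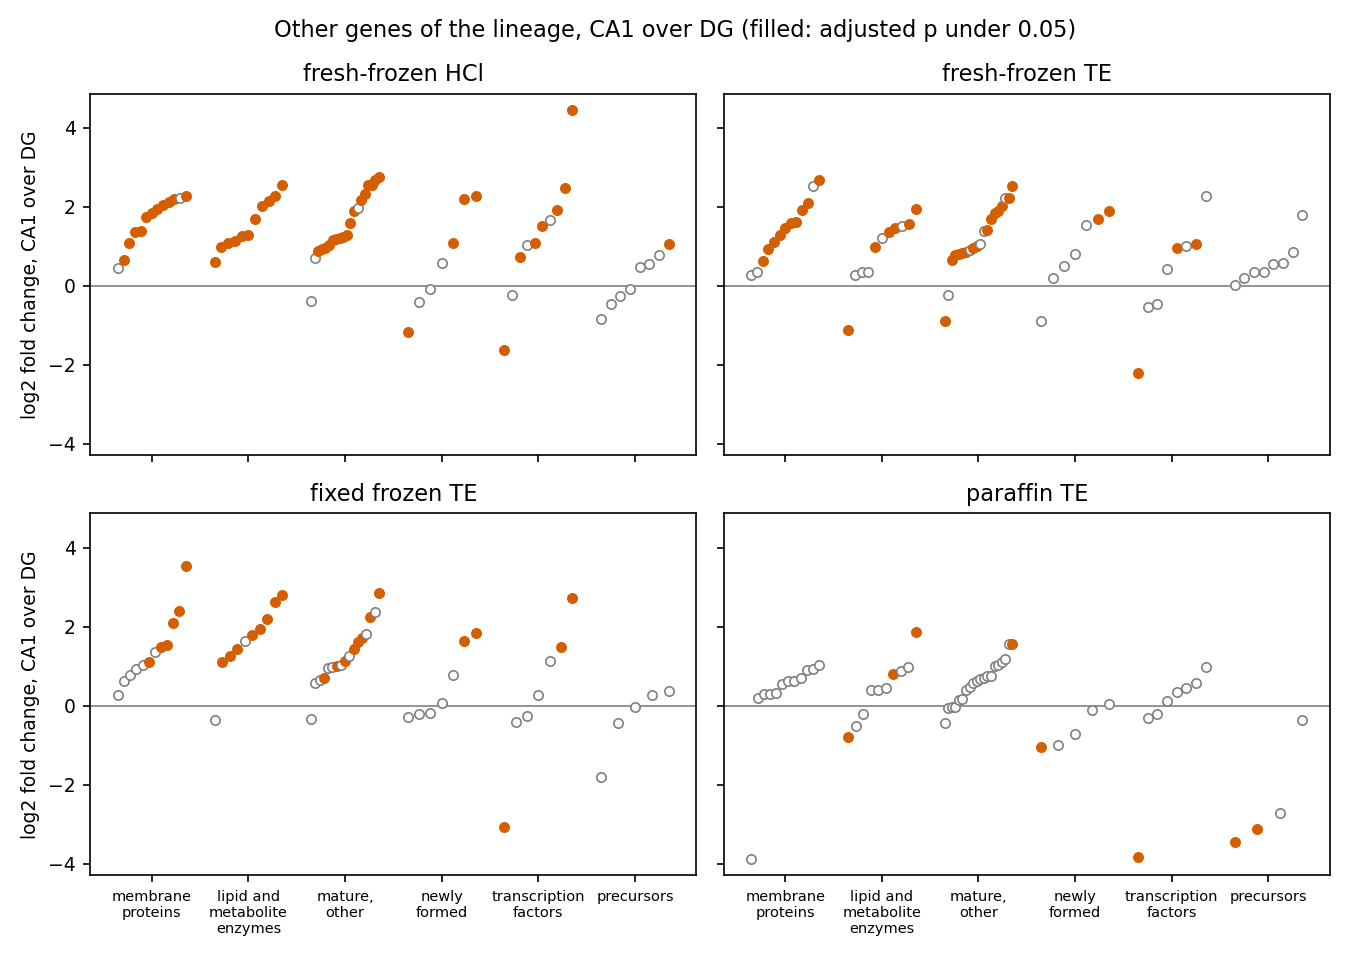
Log2 fold change of CA1 over DG (y axis) for each other gene of the lineage tested (points), by list (x axis) and condition (panels), filled where the edgeR adjusted p was under 0.05. Most filled points lie above 0 in the membrane, enzyme and mature lists of the 3 frozen conditions, and 1 transcription factor, Tcf7l2, lies far below 0 in each panel.

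Between CA1 and DG most calls in the frozen conditions fell on genes of the mature myelinating cell, which also made up most of the genes tested. Of the 14 other myelin membrane proteins, 11 of 13 tested were higher in CA1 than in DG with HCl, 10 of 13 with TE, 6 of 12 in fixed frozen and 0 of 12 in paraffin sections, where 3 were higher at an unadjusted p under 0.05. Of the 11 lipid and metabolite enzymes 11 of 11, 5 of 11, 8 of 10 and 2 of 10 were higher, and of the 21 other genes of mature oligodendrocytes 17 of 20, 14 of 20, 8 of 17 and 1 of 20. Among 7 genes of newly formed oligodendrocytes 3, 2, 2 and 0 were higher. Of 8 genes of oligodendrocyte precursors, the dividing cells that do not make myelin, 1 of 8, 0 of 8, 0 of 5 and 0 of 4 were higher (1, 2, 0 and 0 at an unadjusted p under 0.05), 2 of 4 were lower in paraffin sections (Lhfpl3 at -3.45 and Cacng4 at -3.13), and the median log2 fold changes of this list in the frozen conditions were 0.20, 0.45 and -0.04. The precursor genes were counted little, which limits their calls. With HCl their summed CPM was 231 ± 34.5 in CA1 and 218 ± 28.3 in DG, against 7722 ± 2161 and 2508 ± 401 for the membrane proteins. In paraffin sections the precursor sum was 55.7 ± 11.5 in CA1, with C1ql1 and Vcan at 0, and 240 ± 38.3 in DG. The 2 paraffin fold changes thus rest on few CA1 UMIs. The 10 transcription factors of the lineage gave 6, 2, 2 and 0 higher calls and 1 lower call, Tcf7l2, in each condition.

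Aspa, the enzyme that splits N-acetylaspartate, was higher in CA1, by 2.16 ± 0.38 (adjusted p = 4.75e-05) with HCl, 1.95 ± 0.27 (adjusted p = 1.28e-06) with TE and 2.79 ± 0.76 (adjusted p = 0.00537) in fixed frozen sections. Fa2h, which hydroxylates the fatty acids of myelin lipids, was higher by 2.54 ± 0.31 (adjusted p = 4.86e-08), 1.47 ± 0.24 (adjusted p = 1.98e-05) and 2.63 ± 0.33 (adjusted p = 1.4e-13). Trf, the iron carrier transferrin, was called in paraffin sections too, at 1.57 ± 0.33 (adjusted p = 0.000267) for CA1 and 1.28 ± 0.35 (adjusted p = 0.0206) for CA3, and not in fixed frozen sections, where CA1 over DG was 1.02 ± 0.38 (adjusted p = 0.0737). The actin-binding Anln, the transmembrane protein Opalin, the protease Adamts4, the phosphatase inhibitor Ppp1r14a and Evi2a were also among the 10 genes with the largest mean changes, with means over the conditions of 1.96, 1.61, 1.71, 1.87 and 1.54, as was Tcf7l2, which was lower in CA1. For CA3 over DG the 10 largest mean changes again included Anln (1.69), Aspa (1.44) and Trf (1.35), together with Tmem88b (1.09) and Lpar1, a lysophosphatidic acid receptor (1.05).

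Tcf7l2, a transcription factor of the Wnt pathway that oligodendrocytes need to differentiate and that some neurons also express, went the other way. It had 73.5 ± 19.9 CPM in CA1, 158 ± 32.3 in CA3 and 236 ± 73.6 in DG with HCl, and 63.3 ± 8.75, 165 ± 33.6 and 294 ± 44.5 in fresh-frozen sections with TE. It was lower in CA1 than in DG, with log2 fold changes of -1.62 ± 0.22 (adjusted p = 2.8e-07) with HCl, -2.20 ± 0.18 (adjusted p = 1.85e-11) with TE, -3.08 ± 0.34 (adjusted p = 1.23e-16) in fixed frozen and -3.83 ± 0.43 (adjusted p = 7.73e-16) in paraffin sections. It was lower in CA1 than in CA3 as well in the 4 conditions, with a mean log2 fold change of -1.62. Among the most counted genes of the other lists, Enpp2, a secreted enzyme that makes lysophosphatidic acid, was higher in CA1 than in DG with HCl (1.07 ± 0.28, adjusted p = 0.00535) and in fixed frozen sections (1.26 ± 0.22, adjusted p = 7.73e-07) and lower with TE (-1.11 ± 0.28, adjusted p = 0.00672) and in paraffin sections (-0.80 ± 0.24, adjusted p = 0.0363). Enpp2 is also expressed by the choroid plexus, and the summed CPM of the 6 markers of choroid plexus and ependyma was 1042 ± 1455 in CA1 and 720 ± 1080 in DG with HCl, and 140 ± 146 against 1861 ± 1219 with TE. The fixed frozen values were 20.8 ± 17.5 against 26.2 ± 2.81, and the paraffin values 196 ± 231 against 2327 ± 4407. Kcnj13 of these markers was at 0 in CA1 in each condition and in DG in all but TE, Ccdc153 was at 0 in CA1 in all conditions but HCl, and in fixed frozen and paraffin CA1 Folr1 and Foxj1 were at 0 as well. The part of such cells in the Enpp2 values was not tested. Ptgds, the prostaglandin D synthase, was lower in CA1 with TE only (-0.90 ± 0.18, adjusted p = 0.000491), and Fyn, a kinase of the Src family, in paraffin sections only (-1.06 ± 0.30, adjusted p = 0.0208). Cryab, a small heat shock protein, and Car2, a carbonic anhydrase, were among the genes called higher in CA1 than in CA3 in 2 conditions, with mean changes of 0.73 and 0.65.

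Between conditions the other genes of the lineage were called in both directions for HCl against TE, 21 higher and 13 lower of 71, where 16.2% and 14.3% of all genes were called. The largest were Plxnb3, a plexin receptor, at 1.76 ± 0.37 (adjusted p = 0.000166), and the secreted C1ql1 at 1.55 ± 0.43 (adjusted p = 0.00427), with Ppp1r14a at 1.16, and in the other direction Aspa at -1.17 ± 0.17 (adjusted p = 1.33e-07). In fixed frozen against fresh-frozen sections 8 were higher and 30 lower of 71 (15.8% and 32.9% of all genes). The precursor proteoglycan Cspg4, at -3.40 ± 0.53 (adjusted p = 6.35e-08), and the connexin Gjc3, at -2.29 ± 0.27 (adjusted p = 4.72e-12), had the largest decreases, and Gal3st1 (-1.93), Lpar1 (-1.77) and C1ql1 (1.80, higher) followed. In paraffin against fixed frozen sections 43 of 66 were higher and 0 lower in the edgeR test (13.7% and 14.4% of all genes), and DESeq2 as well as the unadjusted p (under 0.05) gave 0 lower. The neuronal markers lower in this contrast are given above with the 8 genes. The lineage genes were led by the homeobox factor Nkx6-2 at 2.97 ± 0.68 (adjusted p = 0.000181), Aspa at 2.75 ± 0.30 (adjusted p = 3.01e-16), Evi2a at 2.72 ± 0.30 (adjusted p = 6.07e-16), Anln at 2.64 ± 0.32 (adjusted p = 9.2e-14) and the neuregulin receptor Erbb3 at 2.41 ± 0.60 (adjusted p = 0.000602). By list, the higher calls were 10 of 12 membrane proteins, 10 of 11 enzymes, 16 of 20 other mature genes, 1 of 7 newly formed, 5 of 9 transcription factors and 1 of 7 precursor genes.

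Replicates of the same library differed in the summed CPM of the 8 genes by 1.32 to 3.14 times from the lowest to the highest, and most of the genes moved together in these differences. After the mean of each library was removed from log2(CPM + 20), the 28 pairs of the 8 genes had a median Pearson r of 0.55 over the 48 replicates, from 0.34 to 0.82. Over the 24 fresh-frozen replicates the median was 0.69 and the range wider, from -0.19 for Mbp with Mal to 0.90, with 0.16 for Mal with Cldn11. Against the sum of the other 7, r was highest for Mbp (0.79, Spearman rho 0.73), Cldn11 (0.78, rho 0.71) and Mobp (0.77, rho 0.73), and lowest for Mal (0.56, rho 0.45). The median r of the other 9135 genes with the sum of the 8 was 0.03. These points share libraries, barcodes and depth, and the values are given without a test.

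The gene most like the 8 in this respect was Qdpr, a dihydropteridine reductase (r = 0.81, rho 0.80), and others among the 10 most alike were Opalin (0.74, rho 0.78), Plekhb1 (0.73, rho 0.75), Ugt8a, the enzyme that makes galactosylceramide (0.73, rho 0.73), and Omg, the oligodendrocyte myelin glycoprotein (0.70, rho 0.57). The next 4, Stxbp3 (0.70, rho 0.64), Ctnnal1 (0.70, rho 0.69), Elmo1 (0.70, rho 0.68) and Gna12 (0.68, rho 0.63), were in none of the lists. Over the 58 other lineage genes that passed the filter the median r was 0.48, and the summed CPM of all lineage genes had an r of 0.86 with the sum of the 8. Of the list sums, membrane proteins were at 0.80, other mature genes at 0.77, enzymes at 0.67, transcription factors at 0.61, newly formed oligodendrocytes at 0.43 and precursors at 0.23.

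**Figure D5:**
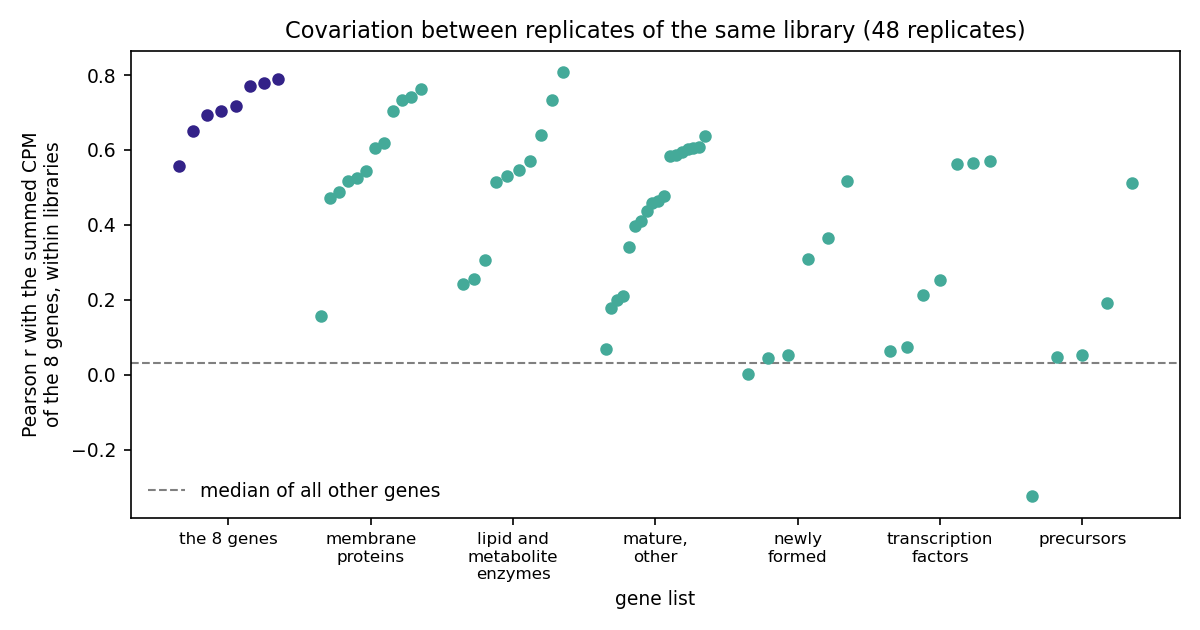
Pearson r (y axis) of each gene with the summed CPM of the 8 myelin genes, after removal of library means, over 48 replicates, by list (x axis). For each of the 8 genes the sum leaves that gene out. The 8 genes lie between 0.56 and 0.79, and the dashed line marks the median of the other genes, 0.03.

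Markers of other cells were read beside these results. Totals ranged from 35932 to 1111804 UMIs per replicate, and replicate 4 had the fewest UMIs in each of the 12 libraries, whereas the sum of the 8 genes was lowest in replicate 4 in 4 of them and highest in 3. The 7 CA1 pyramidal cell markers, with Dkk3 the most counted, were all called higher in CA1 than in DG in the 3 frozen conditions and 3 of 6 in paraffin sections. Of the 8 markers of dentate granule cells, led by Prox1, 8 of 8, 6 of 8, 6 of 7 and 3 of 8 were lower there. Of the 6 CA3 markers, led by Nectin3, 4 of 5, 2 of 6, 2 of 3 and 1 of 4 were lower in CA1 than in CA3. These directions went with the region labels. The markers were chosen with earlier results of these data known, so that this is no independent check of the labels. The paper names Dkk3 and Ociad2, both in the CA1 list, as markers of CA1 and CA3.

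Of the 10 astrocyte markers 0 were higher in CA1 than in DG (edgeR, with 1 at an unadjusted p under 0.05 over the 4 conditions together) and 3, 2, 3 and 1 were lower, and their summed CPM ranged from 3772 to 4419.6 in CA1 and from 4598 to 6020.2 in DG with HCl. The ranges overlapped in the other conditions, with 4754 to 6155 in CA1 and 5796 to 8283 in DG with TE, 1642 to 2208 and 2095 to 2680 in fixed frozen, and 1944 to 2543 and 2407 to 3875 in paraffin sections. Within libraries the astrocyte sum, in which Slc1a2 was most counted, had an r of -0.50 with the sum of the 8 genes. Gfap, the astrocyte filament protein that is strong in white matter, had 97.7 ± 22.5 CPM in CA1 and 144 ± 21.9 in DG with HCl. Over the 4 conditions together, with each marker counted once per condition in which it was tested, microglia markers, with Cx3cr1 the most counted, gave 1 higher call in CA1 against DG in 22 tests (4 at an unadjusted p under 0.05), and those of endothelium and mural cells, with Flt1, 0 calls in 25 (edgeR, 3 at an unadjusted p under 0.05). Interneuron markers, with Sst, gave 6 higher calls and 1 lower in 28 tests (8 and 2 at an unadjusted p under 0.05). Of all genes 0.870% to 8.61% were called higher and 2.42% to 8.35% lower in these comparisons. The choroid plexus marker Ttr varied widely between replicates, with 984 ± 1431 CPM in CA1 with HCl and 2298 ± 4394 in paraffin DG, and its list had an r of 0.28 with the sum of the 8 genes. The part of these cells in the differences of the myelin genes was not tested.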

How the data were processed

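UMI counts of 48 replicates (3 regions, 4 histological conditions, 4 replicates each) were analysed. The authors extracted barcodes and UMIs with UMI-tools 1.0.0, used Trim Galore! for trimming, HISAT2 2.1.0 for alignment to GRCm38 and featureCounts 1.6.4, with no strand option, for assignment, and deposited whole-number counts of different UMIs per gene and barcode, without normalization. The annotation release is not given in the sources used here, and positions were taken from GENCODE M21. Totals ranged from 127253 to 933756 UMIs with HCl, from 294445 to 1111804 in fresh-frozen sections with TE, from 52800 to 307145 in fixed frozen and from 35932 to 223055 in paraffin sections, and levels from few UMIs are imprecise accordingly. The region called CA2 in the design text of the series was taken as CA3, after the sample titles.

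The members and all gene lists (71 genes of the oligodendrocyte lineage in 6 lists, 60 markers of other cells in 8 lists) were chosen with earlier results of these data known. The 8 myelin genes were therefore described by CPM, SD, fold change and the overlap of replicates (all 4 of one group above all 4 of the other), and tests were run for the other lists only. Regions were compared within a condition on the 8 replicates of both regions, and conditions on 24 replicates with region as a covariate, by edgeR's quasi-likelihood test (edgeR 4.0.16, limma 3.58.1, R 4.3.3) with TMM normalization, on genes with 10 or more UMIs in the replicates of the fit together, with Benjamini-Hochberg adjustment over all genes fitted and a call at an adjusted p under 0.05. Likeness was Pearson's r, with Spearman's rho, of log2(CPM + 20) with the summed CPM of the 8 genes, both less their library means, for 9143 genes. Named lineage genes were the 10 whose mean log2 fold change was largest in size among those called in at least 2 conditions in the same direction for each pair of regions, the 5 largest among those called for each pair of conditions, and the highest gene of each list. Results of some of the genes so chosen are not reported here. Other values were computed in Python 3.11.15 with pandas 2.3.3, numpy 2.4.6 and scipy 1.17.1, and drawn with matplotlib 3.10.9.

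Alternatives were DESeq2 1.42.0, its size factors in place of TMM, all genes with any UMI, the replicate number as a block, each replicate left out, other scalings of the sum, and a correction for repeated UMIs that was added after the data were seen. Replicate numbers come from the column names. Same-numbered replicates deviated together (every correlation of deviations over 0.1) in 4 of the 12 pairs of regions, namely CA3 and DG with HCl and the 3 pairs in fresh-frozen sections with TE, and in 2 of the 9 pairs of conditions within a region. No 2 of the 48 columns were identical, and no column was left unused.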

Additional observations from a re-analysis of the deposited data

Results flagged for a closer look

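Of the 108 groups of 4 replicates examined (8 genes and their sum in 12 libraries), 6 held 1 replicate whose gap to its nearest neighbour exceeded Dixon's 95% critical value. Chance alone would single out about 1 in 20 groups. Mbp had 3809 CPM in replicate 2 of fixed frozen CA1, against 1275 to 1679 in the other 3. Mal had 548 CPM in replicate 3 of fixed frozen CA3, against 246 to 295. Cldn11 stood out in DG in 3 conditions, at 556 CPM in replicate 1 with HCl (others 312 to 327), at 380.2 in replicate 1 of fresh-frozen sections with TE (others 255 to 276) and at 394 in replicate 4 of fixed frozen sections (others 259.9 to 276). The summed CPM of the 8 genes was 4479 in replicate 1 of DG with HCl, against 2858 to 3077 in the others. In each case the replicate was the highest of its group. The cause was not tested.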

How the results depend on the processing

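The calls among the other lineage genes in HCl-treated and TE-treated fresh-frozen sections against DG and between conditions stayed within 1.5 times their number under each alternative. With DESeq2 there were 4 calls between CA1 and CA3 with HCl (8 with edgeR), 17 between CA1 and DG (27) and 6 between CA1 and CA3 (11) in fixed frozen sections, and 4 between CA1 and DG (8) and 1 between CA3 and DG (2) in paraffin sections. In the same order DESeq2 gave no adjusted p to 4, 18, 17, 19 and 23 lineage genes, so that fewer genes could be called. Without a filter on low counts 1 call was made between CA1 and CA3 in paraffin sections (3). The log2 ratio of the summed CPM of CA3 to DG with HCl was 1.58 without Mbp (1.14 with it). The cause was not tested for these.

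With the replicate number as a block, there were 13 calls between CA1 and CA3 with HCl (8) and 4 between CA3 and DG in paraffin sections (2), comparisons in which the correlations of same-numbered replicates were all positive but not all over 0.1. In the 4 comparisons of regions where all were, the block gave 48 calls for CA3 against DG with HCl (41), 44 for CA1 against DG (36), 41 for CA3 against DG (35) and 1 for CA1 against CA3 (1) in fresh-frozen sections with TE, so that no number of lineage calls moved by over 1.5 times. Over all genes the calls in these comparisons rose with the block, in the same order, from 1363 to 2619, 1420 to 2262, 1138 to 1946 and 640 to 1222. The main test did not use the replicate number. When each replicate was compared with the 4 of the other library, 35 of 48 over the regions correlated best with their own number, and 22 of 36 over the conditions.

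When each replicate was left out in turn, the calls ranged from 4 to 8 between CA1 and CA3 with HCl, with 4 without CA1 replicate 1 and 5 without CA1 replicate 2, CA3 replicate 1 or CA3 replicate 2. In fixed frozen sections they ranged from 15 to 27 for CA1 against DG and from 5 to 13 for CA1 against CA3, with both lowest numbers without CA1 replicate 2. In paraffin sections they ranged from 5 to 13 for CA1 against DG, with 5 without CA1 replicate 1, 2 or 4 and 13 without DG replicate 1. They ranged from 1 to 5 for CA3 against DG, with 5 without CA3 replicate 1 and 1 without CA3 replicate 2 or DG replicate 2 or 3. They ranged from 0 to 5 for CA1 against CA3, with 0 without CA1 replicate 4 or CA3 replicate 4, 1 without CA1 replicate 1, 2 or 3 or CA3 replicate 3, and 5 without CA3 replicate 1. Of the fold changes of the 8 genes over DG, that of Mog in fixed frozen CA3 changed its sign, from 0.62 to -0.44 without CA3 replicate 2, as did several values near 0 between CA1 and CA3, and the other large moves, those of Mbp, Mobp, Mog and Cnp in fixed frozen and of Mobp and Mal in paraffin sections, kept their sign. Depth limits the fixed frozen and paraffin comparisons most, where Mog, Mag and Ermn rest on few UMIs.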
